A study of Mus musculus with 76 samples.

Results

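The genes of the T cell receptor signalling machinery were followed in SOD1-G93A and wild-type mice. The material was thymic T cells, T cell cultures, inguinal lymph nodes and whole thymi. The genes followed are 38 of the 55487 in the tables. Among them are the CD3 chains and the kinases, adaptors and enzymes next to the receptor. Further members are phosphatases and ubiquitin ligases that act on it, and the calcium, Ras and NF-kappaB arms. All 38 were chosen by name for their place in the pathway, with earlier results of these data known. They were found by symbol in the whole thymus table and joined to the other tables by gene ID.

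The T cell receptor has no enzyme of its own: its alpha and beta chains bind peptide on MHC, and the CD3 chains carry the signal into the cell. The kinase Lck phosphorylates the CD3 chains, Zap70 docks on them and phosphorylates the adaptor Lat, and phospholipase C gamma 1 bound to Lat then opens the calcium and diacylglycerol arms. In the thymus the strength of this signal decides whether a developing T cell dies, matures, or becomes a regulatory T cell (Treg). Double-positive thymocytes also express genes of the machinery.

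The libraries used came from mice with the Sod1Mut genotype (SOD1, a model of amyotrophic lateral sclerosis that carries mutant human superoxide dismutase 1) and from wild-type mice (WT), at day 120 (d120) or day 30 (d30), and the strain label read SOD1-G93A for both genotypes. Sorted thymic Treg (12 libraries) and sorted thymic CD4 cells (11 libraries) were sampled at d120 and d30. Treg labelled as in vitro were sampled with no activation (T0) and after activation at T2 and T20, with no unit and no age given (18 libraries). Inguinal lymph nodes and whole thymi, both unsorted, were sampled at d120 (6 libraries each). In these comparisons each genotype, day or time had 3 libraries, except WT CD4 at d30 with 2. The sources used here do not give the sex of the mice, the gate of each sort or the activating agent.

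Sod1 counts fitted the labels: every SOD1 library stood above every WT library in 9 of 9 sets of libraries compared here. Total counts ran between 1944589 and 34151147 per library in Treg, 837050 and 14047347 in CD4 cells, 171619 and 19699330 in the cultures, where 4 libraries had under 300000, and 63887 and 894958 in the lymph nodes, where 2 did. Foxp3, the transcription factor that defines Treg, had a median of 107 CPM (read counts scaled to a common library size with TMM factors) in Treg at d120 and 48.8 CPM at d30, against 17.8 CPM in CD4 cells at d120 and 17.5 CPM at d30. In the cultures labelled Treg, Foxp3 lay between 3.6 and 31.8 CPM at T0, between 59.4 and 265 CPM at T2 and between 39.5 and 325 CPM at T20, so the T0 cultures had little Foxp3 beside sorted Treg, whose lowest library had 34.0 CPM. Day 30 and day 120 may have been prepared apart, so age and preparation cannot be told apart. Every CD4 library at d120 had fewer counts (837050 to 2239878) than every CD4 library at d30 (2346044 to 14047347). The same held against every Treg library at d120 (3241250 to 34151147). Depth thus went with age in CD4 cells and with cell type at d120, and its part was not tested. In bulk libraries, fewer cells of a type and less RNA per cell cannot be told apart. No label says that replicates were separate animals, so p-values measure the spread between these libraries, which may be technical.

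Per kilobase of exon, the level of the members spanned a wide range in each population. In Treg at d120 the highest levels were those of Cd3g with 385 ± 120 CPM per kb, Lck with 369 ± 30.1 and Lat with 254 ± 55.1 (SD, n = 6), and in Treg at d30 those of Cd3g with 552 ± 71.5, Lck with 491 ± 25.7 and Cd3e with 255 ± 24.7 CPM per kb (SD, n = 6). Cd3g and Lck did not differ beyond their spread at either age in Treg. In CD4 cells at d120 Cd2, the adhesion receptor for CD48, led with 296 ± 114 CPM per kb, ahead of Lck with 238 ± 33.1 (SD, n = 6), and at d30 Lck led with 361 ± 50.3 and Cd3g followed with 296 ± 79.3 CPM per kb (SD, n = 5). Nfatc2, a calcium-driven transcription factor, was lowest of the 38 in both populations at both ages, at 3.0 CPM per kb in Treg at d120, 2.3 in Treg at d30, 1.2 in CD4 cells at d120 and 1.6 in CD4 cells at d30. The order was different in culture. Lat led at T0 with 354 ± 74.2 CPM per kb, followed by Lck with 265 ± 32.1 and Cd3d with 249 ± 58.3, whereas Cd2 led at T2 with 197 ± 160 and at T20 with 158 ± 78.7 CPM per kb (SD, n = 6 each), and in both cases stood within its own spread of Lat.

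Most of the machinery was lower in the activated cultures than at T0. Of the 38 members, 3 rose and 22 fell at T2 relative to T0, and 3 rose and 23 fell at T20 relative to T0 (edgeR quasi-likelihood test, adjusted p under 0.05 after Benjamini-Hochberg adjustment over the 11787 genes tested, written edgeR adjusted p from here on). Over all genes tested the same rule called 23.8% higher and 34.3% lower at T2, and 24.1% higher and 34.1% lower at T20. The median log2 fold change of the members was -0.99 at T2 and -0.84 at T20, beside -0.24 and -0.25 for all genes. The 3 that rose were Cd6, Cd5 and the phosphatase Ptpn6 at both times, and all 22 that fell at T2 also fell at T20, where Sla joined them; both comparisons share the T0 libraries.

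**Figure D1:**
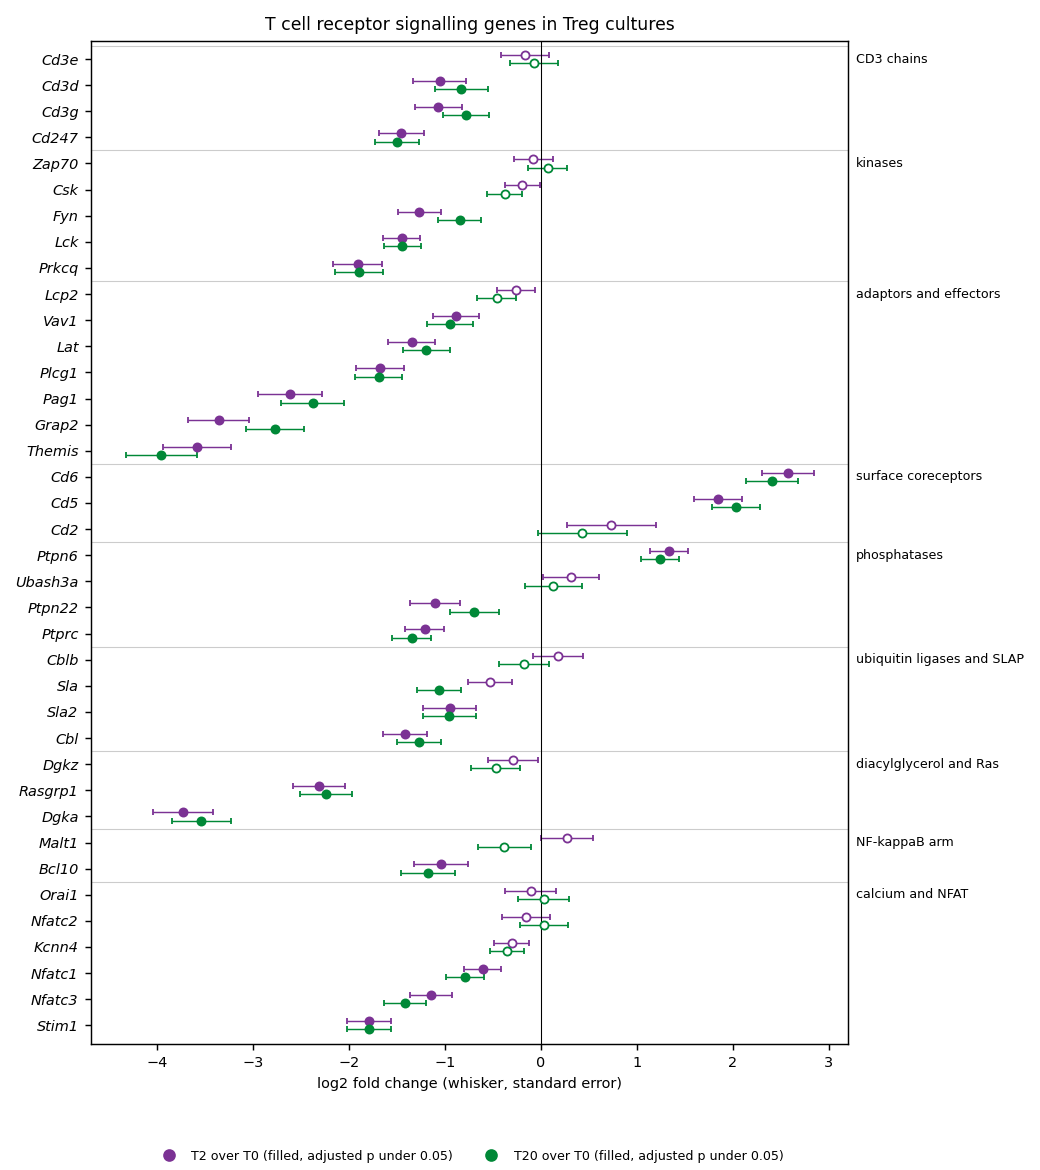
Log2 fold change of each of the 38 members at T2 and at T20 relative to T0 (both genotypes together, 6 libraries a time), with bars of 1 SE; filled points passed the test. Cd6, Cd5 and Ptpn6 lie to the right of 0 at both times, and Dgka, Themis and Grap2 lie farthest to the left.

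Of the 4 CD3 chains 3 fell at each time and Cd3e did not pass. Cd247 alone of these held under all 26 alternatives run at each time, and at T20 Cd3d and Cd3g each no longer passed in 8. Cd3d (chromosome 9, 44981786 to 44987339, plus strand, mm10) had 285, 460 and 573 CPM at T0 (lowest, median and highest of 6), 66.6, 250.3 and 277 CPM at T2, and 206, 249 and 326 CPM at T20. It fell by 1.05 on the log2 scale at T2 (SE 0.28, edgeR adjusted p = 0.00316) and by 0.83 at T20 (SE 0.27, edgeR adjusted p = 0.0146). All T2 libraries lay below all T0 libraries, and the T20 and T0 libraries overlapped. Cd3g (chromosome 9, 44969572 to 44980431, minus strand) ran alongside, with medians of 385, 190 and 207 CPM at T0, T2 and T20, and fell by 1.07 (edgeR adjusted p = 0.00105) and 0.78 (edgeR adjusted p = 0.00955). Cd247, which encodes the zeta chain with most of the phosphorylation motifs, had 274, 299 and 399 CPM at T0, 60.8, 117 and 170 CPM at T2, and 74.7, 109 and 149 CPM at T20, so that neither activated time overlapped T0. It fell by 1.45 at T2 (SE 0.23, edgeR adjusted p = 3.73e-05) and by 1.5 at T20 (SE 0.23, edgeR adjusted p = 2.84e-05); 56.4% of its exon bases also lie in exons of Pou2f1 on the other strand, and whether counting used strand is not given in the sources used here. Cd3e (chromosome 9, 44998740 to 45009627, minus strand) had overlapping values at all times: its medians were 329, 316 and 341 CPM at T0, T2 and T20, with log2 fold changes of -0.16 at T2 (SE 0.25, edgeR adjusted p = 0.589) and -0.07 at T20 (SE 0.25, edgeR adjusted p = 0.828).

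Cd3g and Cd3d lie head to head, with 1354 bases between the genes, and Cd3e lies 11400 bases beyond Cd3d. The 250 bases before each start (RefSeq, GRCm38.p6) are shown because both genes fell together at T2; capitals mark the E-box CACCTG, read on either strand, a motif bound by E proteins, which are central regulators of T cell development.

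Cd3d, chr9:44981536-44981785, plus strand: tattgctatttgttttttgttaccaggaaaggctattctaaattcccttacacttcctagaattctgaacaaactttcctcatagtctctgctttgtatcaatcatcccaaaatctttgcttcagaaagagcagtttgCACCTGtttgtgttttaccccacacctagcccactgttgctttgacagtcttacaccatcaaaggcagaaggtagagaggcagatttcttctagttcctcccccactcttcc

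Cd3g, chr9:44980432-44980681, minus strand: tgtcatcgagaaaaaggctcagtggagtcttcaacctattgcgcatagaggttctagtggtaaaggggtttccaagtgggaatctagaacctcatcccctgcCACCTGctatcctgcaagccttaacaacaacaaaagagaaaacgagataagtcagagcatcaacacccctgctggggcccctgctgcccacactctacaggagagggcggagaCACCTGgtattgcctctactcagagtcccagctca

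Cd5, chr19:10738975-10739224, minus strand, shown for a gene that went the other way: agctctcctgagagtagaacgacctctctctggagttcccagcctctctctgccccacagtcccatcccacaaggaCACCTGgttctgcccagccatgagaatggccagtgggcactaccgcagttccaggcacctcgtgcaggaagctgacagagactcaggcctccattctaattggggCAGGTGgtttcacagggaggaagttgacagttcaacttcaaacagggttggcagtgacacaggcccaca

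The Cd3d window had 1 match, 112 bases before the start, the Cd3g window had matches 148 and 35 bases before, and the Cd5 window 174 and 69 bases before. The motif was thus in windows of genes that fell and of a gene that rose. RefSeq windows were at hand for 32 of the 38 members, with 45 starts. CACCTG or its complement was in 14 of these 45 windows (31.1%), beside 17.2% of all 32851 windows of the same length. The E-box CAGCTG was in 3 (6.67%, beside 13% of all) and the RUNX core TGTGGT in 5 (11.1%, beside 14% of all). The ETS site CCGGAAG and the AP-1 site TGANTCA were in none of the 45, beside 6.91% and 6.75% of all windows.

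The surface receptors Cd5 and Cd6, neighbouring scavenger-receptor genes on chromosome 19 that lie 50338 bases apart and whose products dampen receptor signals, went up instead. Cd6 had 10.7, 38.4 and 57.0 CPM at T0, 146, 254 and 301 CPM at T2, and 200.1, 203 and 241 CPM at T20. It rose by 2.58 on the log2 scale at T2 (SE 0.27, edgeR adjusted p = 4.75e-07) and by 2.41 at T20 (SE 0.27, edgeR adjusted p = 1.15e-06), and all activated libraries lay above all T0 libraries. Cd5 had 10.7, 30.8 and 40.1 CPM at T0, 92.5, 104 and 148 CPM at T2, and 63.5, 128 and 178 CPM at T20, again with no overlap with T0. Its log2 fold change was 1.85 at T2 (SE 0.25, edgeR adjusted p = 6.33e-06) and 2.03 at T20 (SE 0.25, edgeR adjusted p = 2.74e-06). Ptpn6, the phosphatase SHP-1, which takes phosphate off the kinases of the receptor, had medians of 104, 269 and 253 CPM at T0, T2 and T20 and no activated library as low as the highest T0 library. It rose by 1.34 at T2 (SE 0.20, edgeR adjusted p = 2.17e-05) and by 1.24 at T20 (SE 0.20, edgeR adjusted p = 4.98e-05). Cd2 had the widest spread of the members at T2, between 60.0 and 813 CPM, and did not pass at either time.

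**Figure D2:**
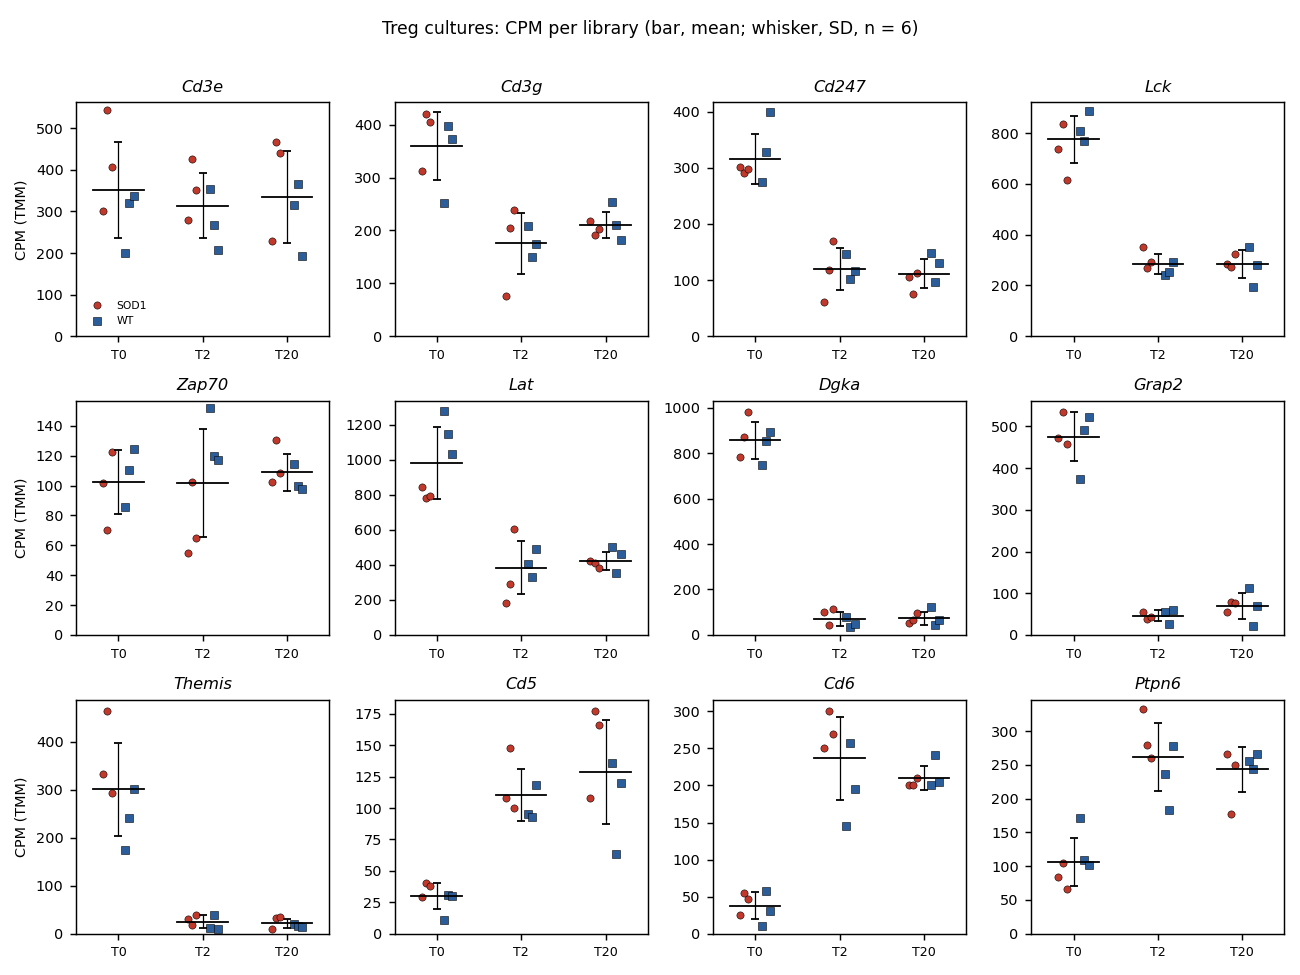
CPM in each culture library at T0, T2 and T20, for 12 members, with SOD1 libraries as circles and WT libraries as squares; the bar is the mean and the whisker the SD (n = 6), and each axis starts at 0. Cd5, Cd6 and Ptpn6 sit above their T0 values at both activated times, Dgka, Grap2 and Themis sit below, and Cd3e and Zap70 overlap throughout.

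Among the kinases, Lck had 615, 789 and 886 CPM at T0, 241, 279 and 352 CPM at T2, and 194, 282 and 350.5 CPM at T20. It fell by 1.45 at T2 (SE 0.19, edgeR adjusted p = 5.21e-06) and by 1.44 at T20 (SE 0.19, edgeR adjusted p = 6.20e-06), with every activated library below every T0 library. Zap70, the next kinase in the chain, overlapped at all times, with medians of 106, 110 and 105 CPM, and its log2 fold change was -0.08 at T2 (SE 0.20, edgeR adjusted p = 0.760) and 0.07 at T20 (SE 0.20, edgeR adjusted p = 0.780). Prkcq, the protein kinase C theta that leads to NF-kappaB, fell by 1.91 and 1.89, and Fyn, the second Src-family kinase of T cells, by 1.27 and 0.84. Csk, which inhibits Lck, did not pass.

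Of the 7 adaptors and effectors 6 fell at each time and none rose. Grap2, the adaptor Gads that links Lat to Lcp2 (SLP-76), had 374, 482 and 535 CPM at T0, 26.9, 49.4 and 60.3 CPM at T2, and 21.8, 73.7 and 113 CPM at T20. It fell by 3.36 at T2 (SE 0.31, edgeR adjusted p = 1.49e-07) and by 2.77 at T20 (SE 0.30, edgeR adjusted p = 8.78e-07). Themis, a T-lineage protein needed for positive selection in the thymus, had 174.5, 296 and 464 CPM at T0, 10.1, 24.5 and 39.8 CPM at T2, and 10.5, 18.6 and 33.8 CPM at T20. It fell by 3.58 at T2 (SE 0.36, edgeR adjusted p = 2.80e-07) and by 3.96 at T20 (SE 0.37, edgeR adjusted p = 2.01e-07), and neither gene's activated libraries overlapped T0. Lat had medians of 937.5, 368 and 416 CPM at T0, T2 and T20 and no overlap with T0. It fell by 1.35 (SE 0.25, edgeR adjusted p = 0.000148) and by 1.19 (SE 0.24, edgeR adjusted p = 0.000444). Pag1, the membrane anchor of Csk, fell by 2.62 and 2.38, Plcg1 (phospholipase C gamma 1) by 1.67 and 1.69, and Vav1, the exchange factor for Rac, by 0.88 and 0.94. Lcp2 itself did not pass at either time.

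The diacylglycerol arm held the largest drop of the 38 members at T2. Dgka, the kinase that removes diacylglycerol and so ends the signal to Ras, had 748, 862 and 980.5 CPM at T0, 36.1, 63.3 and 113 CPM at T2, and 41.8, 66.3 and 121 CPM at T20. It fell by 3.73 at T2 (SE 0.31, edgeR adjusted p = 6.00e-08) and by 3.54 at T20 (SE 0.31, edgeR adjusted p = 9.75e-08), and the gap between T0 and the activated libraries was wide. Rasgrp1, which diacylglycerol recruits to activate Ras, had medians of 404, 69.1 and 74.0 CPM and fell by 2.31 (SE 0.27, edgeR adjusted p = 1.63e-06) and by 2.24 (SE 0.27, edgeR adjusted p = 2.54e-06). Dgkz, the other diacylglycerol kinase among the members, overlapped at all times and did not pass.

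Of the calcium arm, Stim1, the sensor of the endoplasmic calcium store, had medians of 135, 38.5 and 38 CPM and fell by 1.79 at each time (SE 0.23 each, edgeR adjusted p = 4.06e-06 at T2 and 4.73e-06 at T20). Nfatc3 fell by 1.14 and 1.41 and Nfatc1 by 0.61 and 0.79. Orai1, the channel that Stim1 opens, Nfatc2 and the potassium channel Kcnn4 did not pass, with log2 fold changes between -0.35 and 0.03. In the NF-kappaB arm Bcl10 fell by 1.04 and 1.17, and Malt1, its partner, had 0.27 and -0.38 and did not pass. Of the other phosphatases Ptprc (CD45) fell by 1.21 and 1.35 and Ptpn22 by 1.11 and 0.70. The ubiquitin ligase Cbl fell by 1.42 and 1.27 and the adaptor Sla2 by 0.95 at each time. Sla, whose protein SLAP lowers receptor levels, fell by 1.06 at T20 and had -0.53 at T2 (edgeR adjusted p = 0.0518); the difference between T20 and T2 was itself -0.53 (SE 0.24, edgeR adjusted p = 1). Cblb and Ubash3a did not pass.

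T20 and T2 were not distinguishable in any member: 0 of 38 passed, as did 0% of all genes, with 2 members at an unadjusted p under 0.05 and 0 called by DESeq2 or by limma on voom weights. Malt1 with -0.65 (SE 0.28), Sla with -0.53 (SE 0.24) and Grap2 with 0.59 (SE 0.30) came nearest (edgeR adjusted p = 1 for each).

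Other genes around the pathway moved too. The T cell receptor constant and coreceptor genes fell in 6 of 7 at both times (median log2 fold change -1.83 at each), among them Trbc1 with -2.16 and -1.91, Trbc2 with -2.17 and -1.83, and the costimulatory receptor Cd28 with -1.83 and -2.00. All 12 of 12 genes that receptor signals are known to induce rose at both times (medians 3.78 and 3.59), among them Nr4a1 with 4.71 and 4.47, Nr4a3 with 5.6 and 5.43, Egr2 with 5.39 and 5.28 and Cd69 with 3.61 and 3.34. So the receptor-induced genes were up while most of the machinery was down. Of 27 other proximal genes 6 rose and 14 fell at T2, and 6 rose and 13 fell at T20, with the phosphatases Ptprj (2.93 and 2.67) and Ptpn7 (2.18 and 2.21) among those that rose and the adaptor Skap1 (-2.13 at T2) among those that fell. Of 15 other calcium and NFAT genes 2 rose and 8 fell at T2, and 3 rose and 9 fell at T20, with the calcium channel Orai2 at -4.47 at each time. Of 14 other Ras and MAP kinase genes 1 rose and 5 fell at T2, and 1 rose and 4 fell at T20, with Rasal3, which inactivates Ras, at -2.88 and -2.40. Of 10 other NF-kappaB genes 2 rose and 4 fell at T2, and 2 rose and 5 fell at T20. Beside these lists, 23.8% of all genes rose and 34.3% fell at T2, and 24.1% rose and 34.1% fell at T20. At T2 the falls in the Ras and NF-kappaB lists were near that share.

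Markers of other cells and states moved with the culture times. The 10 double-positive thymocyte markers summed to between 224 and 1357 CPM at T0, between 13 and 208 CPM at T2 and between 40.6 and 98.5 CPM at T20, and 8 of the 9 tested fell at both activated times. The 9 Treg markers summed to between 90.3 and 499 CPM at T0, between 1849 and 5078 CPM at T2 and between 1878 and 3887 CPM at T20, and all 9 rose at both times; Il2ra stands both in this list and among the receptor-induced genes. The 6 NK markers lay between 7.1 and 70.4 CPM at T0, 227 and 601 CPM at T2, and 358 and 646 CPM at T20, and all 4 tested rose; Ncr1 was at 0 in every T0 library. The 8 stromal markers lay between 164 and 313 CPM at T0, 14.6 and 95.6 CPM at T2, and 0 and 34.0 CPM at T20. The part of these shifts in the fall of the members was not tested. With total counts in place of TMM scaling the median of all genes moved up by 0.24 at each time, and 20 members at T2 and 18 at T20 were lower. Without a filter on low counts 14 at T2 and 13 at T20 were lower, and without the 4 libraries under 300000 counts 15 were lower at T20. Of the 25 calls at T2, 17 held under all 26 alternatives run, and of the 26 calls at T20, 16 did. At both times Cd3d, Cd3g, Vav1, Ptpn22, Bcl10, Nfatc1 and Sla2 did not hold throughout. Nor did Nfatc3 at T2, or Fyn, Lat and Sla at T20. Nfatc1 no longer passed in 10 alternatives at T2, and Ptpn22 in 12 at T20.

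In sorted Treg some members rose and others fell with age, in shares near those of all genes for the rise. At d120 relative to d30, 6 of the 38 members rose and 12 fell, beside 16.1% higher and 13.8% lower among the 14824 genes tested, and the median log2 fold change was -0.05 for the members and 0.01 for all genes. Kcnn4, the calcium-gated potassium channel that keeps calcium flowing in, and the adaptor Grap2 led those that rose. Themis, Vav1 and Ptpn6 led those that fell.

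**Figure D3:**
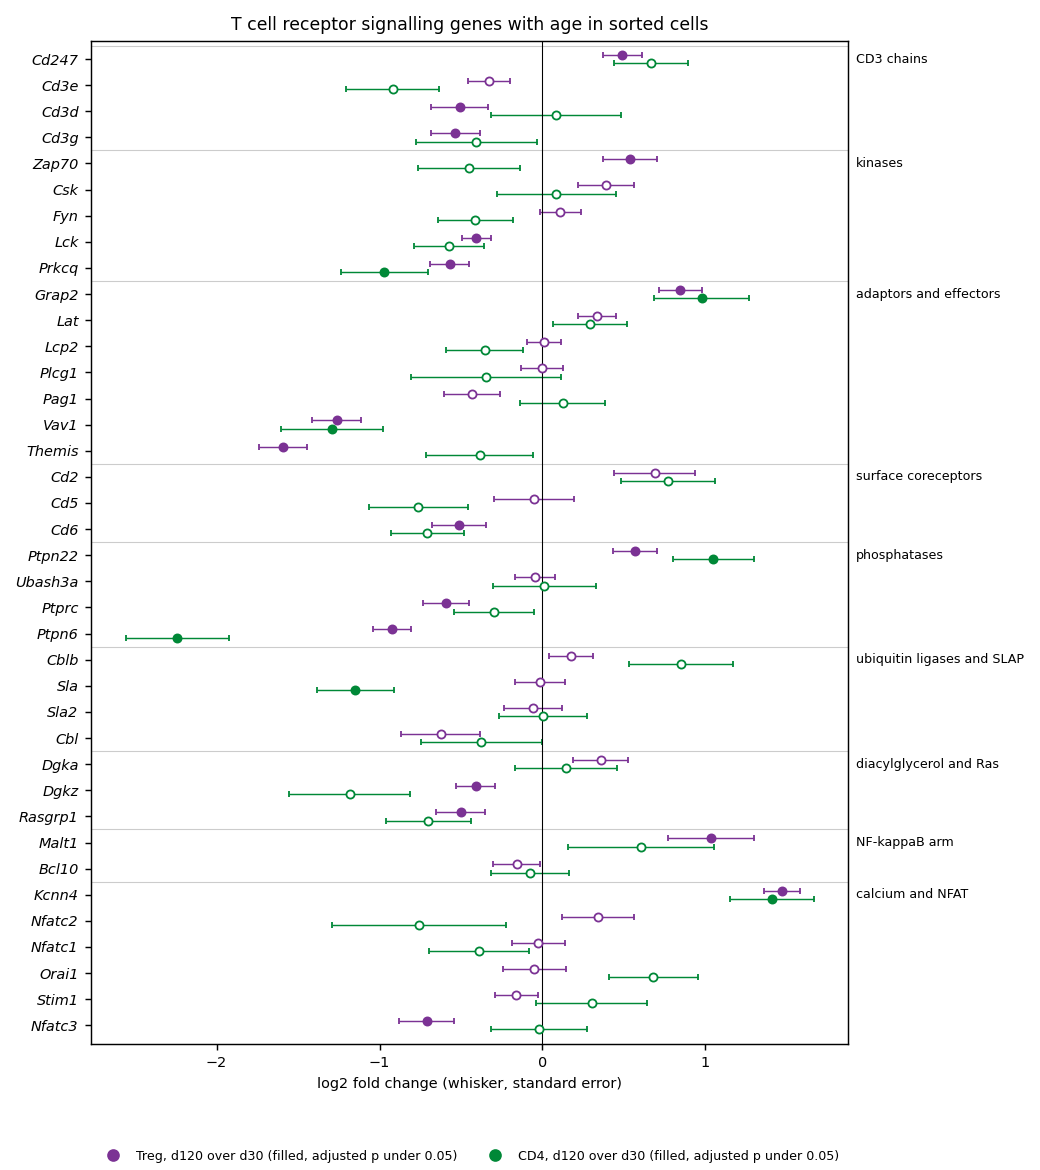
Log2 fold change at d120 relative to d30 for each of the 38 members in sorted Treg and in sorted CD4 cells, with bars of 1 SE; filled points passed the test. Kcnn4 lies near 1.4 in both populations, and Themis lies at -1.59 in Treg and -0.39 in CD4 cells, where it did not pass.

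Kcnn4 (chromosome 7, 24370263 to 24386690, plus strand, mm10) had 290.4, 327 and 406 CPM in Treg at d120 (lowest, median and highest of 6), against 110.3, 124 and 130.2 CPM at d30. All d120 libraries lay far above all d30 libraries, and it rose by 1.47 (SE 0.11, edgeR adjusted p = 6.43e-06). In CD4 cells it had 171, 262 and 300 CPM at d120, against 79.1, 91.7 and 117 CPM at d30, again without overlap, and rose by 1.41 (SE 0.26, edgeR adjusted p = 0.00702). The 250 bases before its start are shown because it is the member with the largest rise in both populations; capitals mark the RUNX core TGTGGT or its complement ACCACA, which occurred 4 times, 226, 213, 190 and 102 bases before the start.

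Kcnn4, chr7:24370013-24370262, plus strand: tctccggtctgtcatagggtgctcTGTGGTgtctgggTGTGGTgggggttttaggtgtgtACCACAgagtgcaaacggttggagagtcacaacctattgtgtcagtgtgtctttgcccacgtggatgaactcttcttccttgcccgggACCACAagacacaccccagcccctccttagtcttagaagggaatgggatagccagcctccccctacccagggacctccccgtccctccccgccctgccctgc

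Grap2 had 70.4, 98.9 and 121 CPM in Treg at d120, against 47.5, 56.6 and 60.4 CPM at d30, with no overlap, and rose by 0.85 (SE 0.13, edgeR adjusted p = 0.000520). Cd247 had 213, 248 and 307 CPM at d120, against 172, 180 and 198 CPM at d30, with no overlap, and rose by 0.49 (SE 0.12, edgeR adjusted p = 0.00864). The other CD3 chains pointed down. Cd3g had 883, 1083 and 1803 CPM at d120, against 1611, 1767 and 2254 CPM at d30, with overlap, and fell by 0.54 (SE 0.15, edgeR adjusted p = 0.0166). Cd3d fell by 0.51 (SE 0.18, edgeR adjusted p = 0.0452), and Cd3e did not pass with -0.33 (SE 0.13, edgeR adjusted p = 0.0766). Cd247 therefore rose while Cd3g and Cd3d fell, and the limit from the exon overlap of Cd247 with Pou2f1 given above applies here too. Malt1 rose by 1.03 (SE 0.26, edgeR adjusted p = 0.0105), with 52.7 to 163 CPM at d120 and 33.0 to 69.6 CPM at d30, and Ptpn22, a phosphatase of Lck and Zap70, by 0.57 (edgeR adjusted p = 0.00654). Zap70 had 43.6, 63.1 and 78.6 CPM at d120, against 34.8, 42.9 and 46.3 CPM at d30, and rose by 0.54 (SE 0.17, edgeR adjusted p = 0.0265).

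Themis had 67.3, 97.8 and 123 CPM in Treg at d120, against 245, 299 and 337 CPM at d30, with a wide gap between the ages, and fell by 1.59 (SE 0.15, edgeR adjusted p = 1.91e-05). Vav1 had 60.6, 102 and 113 CPM at d120, against 221, 230.1 and 249 CPM at d30, and fell by 1.26 (SE 0.15, edgeR adjusted p = 9.04e-05). Ptpn6 had 89.9, 123 and 135 CPM at d120, against 191, 219.6 and 281 CPM at d30, and fell by 0.92 (SE 0.12, edgeR adjusted p = 0.000141). Neither gene's ages overlapped. Lck had 944, 1094 and 1199 CPM at d120, against 1343, 1439 and 1519 CPM at d30, without overlap, and fell by 0.41 (SE 0.09, edgeR adjusted p = 0.00463). Prkcq fell by 0.57 (SE 0.12, edgeR adjusted p = 0.00318) and Nfatc3 by 0.71 (SE 0.17, edgeR adjusted p = 0.00685), both without overlap. Ptprc fell by 0.59, Cd6 by 0.51, Rasgrp1 by 0.50 and Dgkz by 0.41. Lat did not pass, with 609, 649 and 1013 CPM at d120, against 503, 549.5 and 646 CPM at d30 (log2 fold change 0.33, SE 0.12, edgeR adjusted p = 0.0502). The other 18 members that did not pass had log2 fold changes between -0.62 for Cbl and 0.69 for Cd2.

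**Figure D4:**
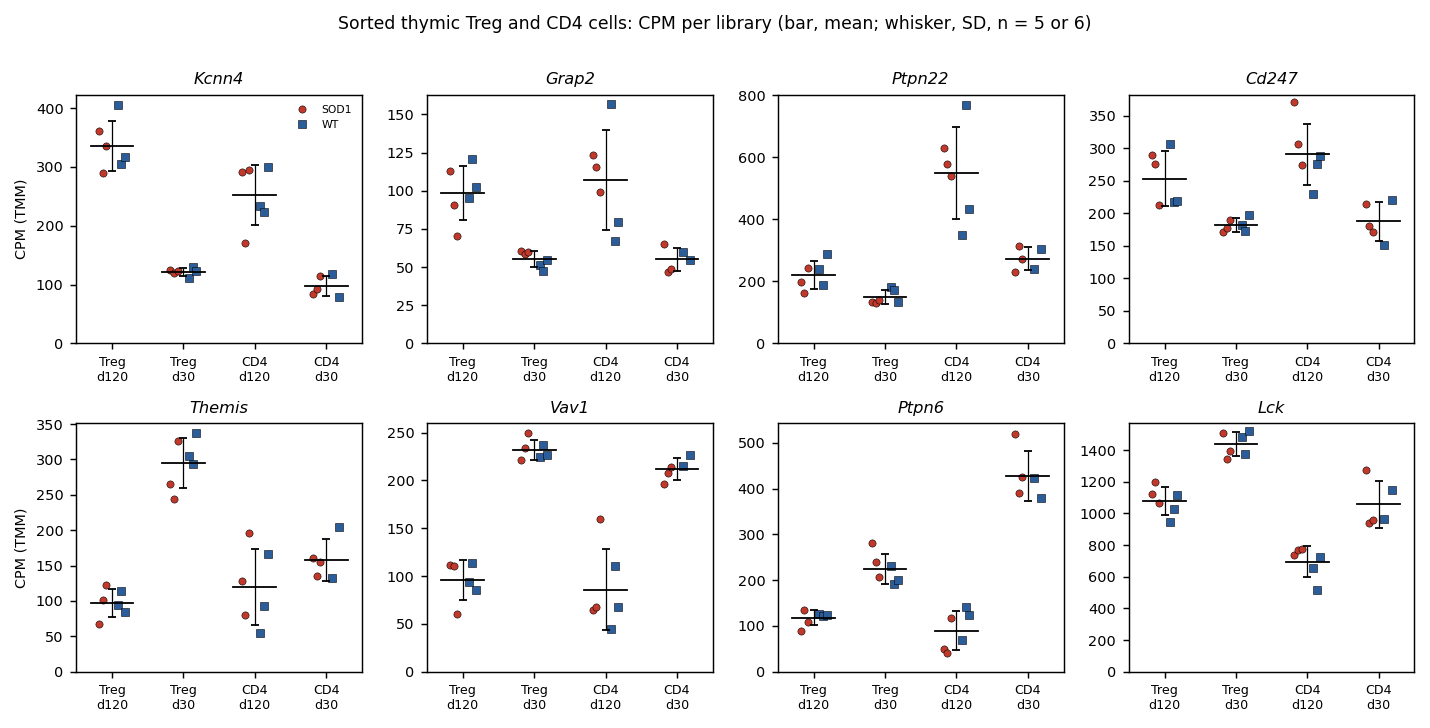
CPM in each sorted Treg and CD4 library at d120 and d30 for 8 members, with SOD1 libraries as circles and WT libraries as squares; the bar is the mean and the whisker the SD (n = 6, or 5 for CD4 cells at d30), and each axis starts at 0. Kcnn4 and Grap2 sit higher at d120 in both populations, and Themis at d120 and d30 separates fully in Treg but overlaps in CD4 cells.

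Of the 18 calls in Treg, 12 held under all 19 alternatives run, among them all those above except Zap70, Cd3g, Cd3d, Cd6, Rasgrp1 and Dgkz. Cd3g lost its call without d30 SOD1 replicate 1 (edgeR adjusted p = 0.0505), while Cd3d and Zap70 lost theirs without any 1 of 7 libraries each, with adjusted p of up to 0.112 and 0.0813. The 10 double-positive thymocyte markers summed to between 1126 and 1453 CPM in Treg at d120, against 2314 to 3008 CPM at d30, and 4 of the 10 fell and 1 rose, with none at 0 in either group. The 9 B cell markers summed to between 192 and 489 CPM at d120, against 53.6 to 108 CPM at d30, and 5 rose. The 9 Treg markers summed to between 1610 and 2636 CPM at d120, against 1311 to 1623 CPM at d30, and 5 rose. Themis and Rag1, a double-positive marker with 62.1 to 93.8 CPM at d120 against 224 to 386 CPM at d30, fell together in these libraries, and the part of such cells in the members' changes was not tested.

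In CD4 cells 3 members rose and 4 fell at d120 relative to d30, beside 4.66% higher and 5.92% lower among the 12479 genes tested, and the median was -0.32 for the members and -0.02 for all genes. Kcnn4, Ptpn22 and Grap2 rose, which had risen in Treg as well, and of the 4 that fell Ptpn6, Vav1 and Prkcq had also fallen in Treg, while Sla had not. Ptpn6 had 40.5, 92.4 and 141 CPM at d120 (6 libraries), against 379.5, 424 and 519 CPM at d30 (5 libraries), with a wide gap, and fell by 2.24 (SE 0.32, edgeR adjusted p = 0.00213). Ptpn22 had 349, 558.5 and 768 CPM at d120, against 231, 270.2 and 315 CPM at d30, without overlap, and rose by 1.05 (SE 0.25, edgeR adjusted p = 0.0192). Grap2 rose by 0.98 (SE 0.29, edgeR adjusted p = 0.0473). Sla had 76.0, 142 and 199 CPM at d120, against 271, 317 and 364.5 CPM at d30, without overlap, and fell by 1.15 (SE 0.24, edgeR adjusted p = 0.0117). Vav1 fell by 1.29 (SE 0.31, edgeR adjusted p = 0.0206) and Prkcq by 0.97 (SE 0.27, edgeR adjusted p = 0.0351).

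The CD3 chains, Lck, Zap70 and Lat did not pass with age in CD4 cells. Cd3e had -0.92 (SE 0.29, edgeR adjusted p = 0.0553), Cd247 0.67 (SE 0.23, edgeR adjusted p = 0.0740), Cd3g -0.41 (SE 0.37, edgeR adjusted p = 0.505) and Cd3d 0.08 (SE 0.40, edgeR adjusted p = 0.917). Lck had 519, 729 and 776 CPM at d120, against 938, 965 and 1274.5 CPM at d30, which do not overlap, with a log2 fold change of -0.57 (SE 0.21, edgeR adjusted p = 0.0974). Zap70 had -0.45 (SE 0.31, edgeR adjusted p = 0.372) and Lat 0.29 (SE 0.23, edgeR adjusted p = 0.430). The 31 members that did not pass lay between -1.18 for Dgkz and 0.85 for Cblb. The counts of calls depended on single d30 libraries: there were 1 higher and 2 lower without SOD1 replicate 3, 1 higher and 1 lower without WT replicate 2, and 0 higher and 1 lower without WT replicate 3. With total counts in place of TMM scaling, which moved the median of all genes down by 0.12, 2 rose and 6 fell. Ptpn6 alone of the 7 held under all 18 alternatives run. The double-positive markers summed to between 525 and 906 CPM at d120, against 918 to 1503 CPM at d30, where 2 of 10 fell. The 11 myeloid and dendritic cell markers summed to between 37.5 and 817 CPM at d120, against 229 to 781 CPM at d30, where 4 of 11 fell. Itgam was at 0 in every d120 library, all of them shallower than those at d30. The part of these cells was not tested.

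The change with age itself differed between Treg and CD4 cells for 2 members, in a test of the difference added after the values had been seen, beside 0.808% of all genes higher and 0.223% lower. Sla had a change that was 1.15 higher in Treg (SE 0.27, edgeR adjusted p = 0.0420), with -0.02 in Treg and -1.15 in CD4 cells. Ptpn6 had a change that was 1.35 higher in Treg (SE 0.32, edgeR adjusted p = 0.0454), with -0.92 in Treg and -2.24 in CD4 cells. Ptpn6 no longer passed in 22 and Sla in 17 of the 30 alternatives run. For both genes these included the size factors of DESeq2 and a block by replicate number. In the same test 1 of 9 B cell markers passed, 8 were positive and their median was 2.13. Of 11 myeloid and dendritic cell markers 1 passed, with 9 positive and a median of 0.74. B cells also express Ptpn6, and the part of these cells was not tested. Themis, which fell in Treg, had a difference of -1.17 (SE 0.35, edgeR adjusted p = 0.103) and did not pass. Leaving out 1 library took the number of members passing to 0 or 1 in 19 of 23 cases, to 0 without any 1 of the d30 libraries except SOD1 replicate 2 of the CD4 cells. At d120 it went to 0 without SOD1 replicate 2 of the CD4 cells or SOD1 replicate 1 or 2 or WT replicate 1 or 3 of Treg.

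Other pathway genes changed with age as well. The shares over all genes were 16.1% higher and 13.8% lower in Treg, and 4.66% higher and 5.92% lower in CD4 cells. In Treg 4 of 7 receptor constant and coreceptor genes rose and 1 fell (Trbc1 0.66, Trbc2 0.47, Cd28 0.84, Cd4 -0.69), 8 of 27 other proximal genes rose and 7 fell (the kinase Txk 1.43, the exchange factor Arhgef6 -1.72, Skap1 -0.92). Also 5 of 14 Ras and MAP kinase genes rose and 2 fell (Braf 1.14, Map2k2 0.70, Rasal3 -0.96). Of 15 calcium and NFAT genes 1 rose and 3 fell (Ppp3ca 0.69, Orai2 -0.69), of 10 NF-kappaB genes 1 rose and 6 fell (Tab2 1.23, Cyld -0.65, Map3k7 -0.62), and of 12 receptor-induced genes 4 rose and 3 fell (Irf4 0.96, Myc 0.68, Nr4a1 -1.05, Nr4a3 -0.97). In CD4 cells the same lists gave 1 and 0 of 7 (Cd28 1.16), 2 and 2 of 27 (Txk 1.62, Sh2d2a 1.17, Arhgef6 -1.46, Skap1 -0.92) and 1 and 0 of 14 (Braf 1.92), higher and lower in that order. The others gave 0 and 1 of 15 (Ppp3cc -1.20), 1 and 1 of 10 (Tab2 1.49, Ikbkg -1.85) and 0 and 2 of 12 (Spry1 -2.51, Nr4a1 -1.69).

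Treg and CD4 cells of the same day carried different amounts of several members. At d120, 9 were higher and 5 lower in Treg, beside 10.9% and 6.72% of the 15725 genes tested, and at d30 5 were higher and 4 lower, beside 2.17% and 2.5%; the medians were -0.06 for the members at each day, beside 0.14 for all genes at d120 and 0.01 at d30. Lat, Ubash3a and Sla2 were higher and Fyn and Ptpn22 lower in Treg at both days.

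Lat had 609, 649 and 1013 CPM in Treg at d120, against 342, 431 and 469 CPM in CD4 cells, without overlap (log2 fold change 0.75, SE 0.15, edgeR adjusted p = 0.00200). Lck had 944, 1094 and 1199 CPM in Treg at d120, against 519, 729 and 776 CPM in CD4 cells, also without overlap (0.64, SE 0.13, edgeR adjusted p = 0.00196). Cd3e had 560.2, 785 and 1109 CPM in Treg at d120, against 333, 424 and 449 CPM in CD4 cells (1.04, SE 0.22, edgeR adjusted p = 0.00218), and Nfatc2 15, 27.9 and 54.2 CPM in Treg, against 2.5, 6.6 and 42.8 CPM in CD4 cells (1.58, SE 0.38, edgeR adjusted p = 0.00608). The Nfatc2 libraries overlapped and the Cd3e libraries did not. Ubash3a, a phosphatase-like suppressor of Zap70, was 0.78 higher (edgeR adjusted p = 0.0105), Sla2 0.79 (edgeR adjusted p = 0.0136; 23.6% of its exon bases lie in Rab5if exons on the other strand), Sla 0.64, Plcg1 1.11 and Cd3g 0.81 (edgeR adjusted p = 0.0472). Cd3d with -0.50 (edgeR adjusted p = 0.273), Cd247 with -0.19 (edgeR adjusted p = 0.408) and Zap70 with 0.00 (edgeR adjusted p = 1) did not pass.

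Ptpn22 had 162, 219 and 288 CPM in Treg at d120, against 349, 558.5 and 768 CPM in CD4 cells, without overlap (-1.33, SE 0.19, edgeR adjusted p = 4.26e-05). Ptprc stood at -0.79 on the log2 scale (edgeR adjusted p = 0.00572), Cd2 at -0.97 (edgeR adjusted p = 0.0146), Nfatc3 at -0.79 (edgeR adjusted p = 0.0208) and Fyn at -0.47 (edgeR adjusted p = 0.0486). The number lower at d120 went down to 3 without WT replicate 3 of either population and to 3 with total counts, which moved the median of all genes up by 0.12. Of the 14 calls, 7 held under all 30 alternatives run: Cd3e, Lck, Lat, Nfatc2, Cd2, Ptprc and Ptpn22.

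At d30 Fyn had 194, 199.9 and 238 CPM in Treg, against 386, 429 and 483 CPM in CD4 cells, far apart (-1.02, SE 0.17, edgeR adjusted p = 0.000523), and this call alone of the 9 held under all 30 alternatives run. Ptpn22 stood at -0.88 (edgeR adjusted p = 0.00841), Zap70 at -1.02 (edgeR adjusted p = 0.0178) and Ptpn6 at -0.91 (edgeR adjusted p = 0.0209). Higher in Treg were Lat with 0.68 (edgeR adjusted p = 0.0163), Ubash3a with 0.81 (edgeR adjusted p = 0.0278), Sla2 with 0.83 (edgeR adjusted p = 0.0361), Themis with 0.89 (edgeR adjusted p = 0.0491) and Pag1 with 0.75 (edgeR adjusted p = 0.0495). Cd3g had 0.93 (edgeR adjusted p = 0.0893), Lck 0.44 (edgeR adjusted p = 0.0790), Cd3e 0.41 (edgeR adjusted p = 0.447), Cd3d 0.07 (edgeR adjusted p = 0.976) and Cd247 -0.04 (edgeR adjusted p = 0.973), and these did not pass. No member was higher without WT replicate 2 or WT replicate 3 of the CD4 cells at d30, 1 was without SOD1 replicate 3 of either population or WT replicate 1 or 2 of Treg at d30, 2 were without SOD1 replicate 1 of Treg at d30, and 3 were without SOD1 replicate 2 of the CD4 cells, WT replicate 3 of Treg at d30 or WT replicate 1 of Treg at d120. The number lower was 2 without WT replicate 2 or 3 of the CD4 cells or SOD1 replicate 2 of Treg at d30.

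Among the other pathway genes, 4 of 7 receptor constant and coreceptor genes were lower in Treg at d120 and 3 of 7 at d30, with Trac at -1.38 at d120 and -1.52 at d30. The shares over all genes were 10.9% higher and 6.72% lower in Treg at d120, and 2.17% higher and 2.5% lower at d30. Of 27 other proximal genes 2 were higher and 7 lower at d120. At d30 1 was higher and 3 lower, with Txk at -1.21 and -1.04 and the adaptor Nck2 at 1.05 and 1.55. The Ras, calcium and NF-kappaB lists had 1 higher and 1 lower each at d120, and together none higher and 1 lower at d30 (Ppp3cc with -1.26). Of the receptor-induced genes 3 were higher and 1 lower at d120, and 1 higher and 1 lower at d30, with Il2ra, which also marks Treg, at 5.07 and 4.97. The 6 NK markers summed to between 263 and 513 CPM in Treg at d120, against 289 to 768 CPM in CD4 cells. At d30 they summed to between 235 and 314 CPM in Treg, against 344 to 450 CPM in CD4 cells, with 1 higher and 5 lower in Treg at each day and none at 0 throughout a group. The 10 double-positive markers went the other way, with sums of 1126 to 1453 CPM in Treg at d120, against 525 to 906 CPM in CD4 cells. At d30 they had sums of 2314 to 3008 CPM in Treg, against 918 to 1503 CPM in CD4 cells. Of these markers 5 were higher and 2 lower in Treg at d120 and 4 higher and 1 lower at d30. Cd8a was among the lower ones, with medians of 153 CPM in Treg at d120, against 233 CPM in CD4 cells, and 157 CPM in Treg at d30, against 304 CPM in CD4 cells. The 9 B cell markers summed to between 192 and 489 CPM in Treg at d120, against 2.2 to 280 CPM in CD4 cells, with 4 higher and 0 lower. At d30 they summed to between 53.6 and 108 CPM in Treg, against 70.9 to 121 CPM in CD4 cells, with 0 called by edgeR and 0 at an unadjusted p under 0.05. The 10 thymic epithelial markers summed to between 178 and 243 CPM in Treg at d120, against 74.7 to 131 CPM in CD4 cells, where 4 of the 8 tested were higher. At d30 the sums were 144 to 261 CPM in Treg, against 94.3 to 198 CPM in CD4 cells, where 1 was higher. Psmb11 and Foxn1 were at 0 in every CD4 library at d120, all of them shallower than the Treg libraries of that day. The part of such cells in the differences was not tested.

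No member passed between SOD1 and WT in any population. This held in all 9 comparisons and in the 3 tests of whether the genotype effect changed with age (in Treg and in CD4 cells) or with activation (T20 relative to T0), under every alternative run, including DESeq2 and limma on voom weights. Over all genes the same test called 0.0135% in Treg at d120 and 0.0135% at d30, 0.00801% in CD4 cells at d120 and 0.00801% at d30, 0.0679% in cultures at T0, 0.0933% at T2 and 0.0933% at T20, 0.0574% in lymph nodes and 0.0831% in whole thymi, and 0% in each of the 3 tests of a changed effect. Members with an unadjusted p under 0.05 numbered 3 in Treg at d120, 1 in CD4 cells at d120, 2 at T0, 2 at T2, 1 in lymph nodes and 1 in whole thymi, and 0 in Treg and CD4 cells at d30 and in cultures at T20. The tests of a changed effect had 0 in Treg, 0 in CD4 cells and 1 in cultures.

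**Figure D5:**
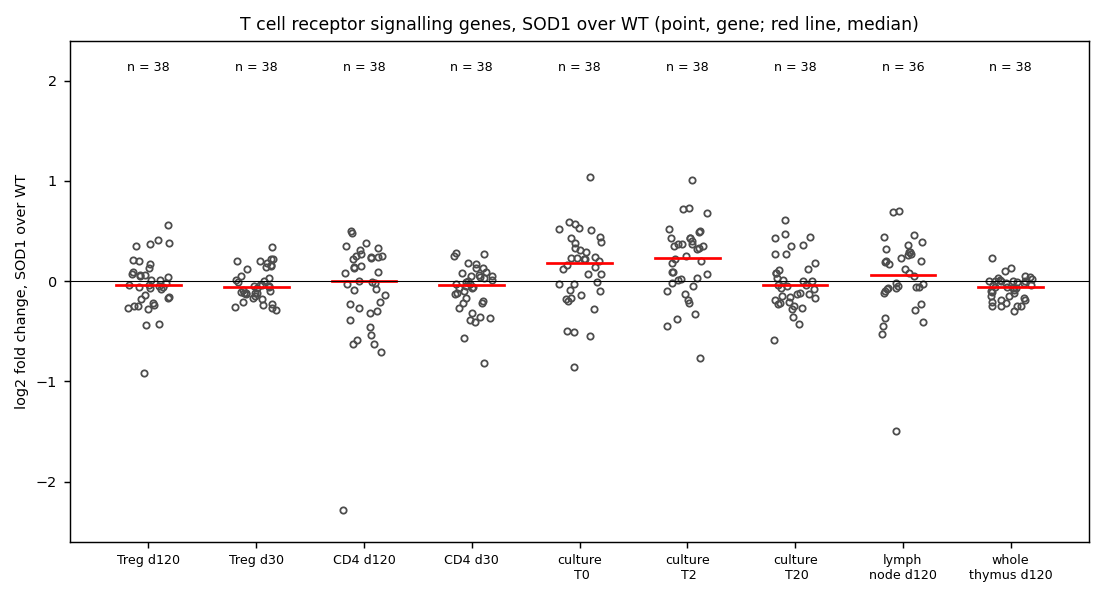
Log2 fold change of SOD1 over WT for each of the 38 members in each set of libraries, as a point per member, with the median marked. The points lie around 0 in all sets and none passed the test; they spread most in CD4 cells at d120, with Nfatc2 at -2.29, and in lymph nodes, with Cbl at -1.49.

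In Treg at d120 Nfatc2 came nearest, with 28.3, 22.1 and 15 CPM in the SOD1 libraries and 27.5, 43.1 and 54.2 CPM in the WT libraries (log2 fold change -0.91, SE 0.31, edgeR adjusted p = 0.673). The groups overlapped by a single pair of libraries. Cd3g had 1698, 1803 and 994 CPM in SOD1 and 1068, 1097 and 883 CPM in WT (0.56, SE 0.21, edgeR adjusted p = 0.690), and Cd3e 991.5, 1109 and 745 CPM in SOD1 and 804, 766 and 560.2 CPM in WT (0.41, SE 0.18, edgeR adjusted p = 0.729). Cd3d with 0.37 (SE 0.25, edgeR adjusted p = 0.810) and Cd247 with 0.06 (SE 0.17, edgeR adjusted p = 0.968) had the same sign. The third SOD1 library lay among the WT values for Cd3g, Cd3e and Cd3d, and below them for Cd247. Lck had 0.13 (SE 0.13, edgeR adjusted p = 0.873), Lat -0.28 (SE 0.17, edgeR adjusted p = 0.798) and Zap70 -0.18 (SE 0.23, edgeR adjusted p = 0.910).

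At d30 the Treg members lay between -0.29 for Cbl and 0.34 for Cd2, all with an edgeR adjusted p of 1, and Lck had -0.05 (SE 0.13). In CD4 cells at d120 Nfatc2 had 6.0, 5.1 and 2.5 CPM in SOD1 and 7.3, 42.8 and 15.4 CPM in WT (-2.29, SE 0.77, edgeR adjusted p = 0.720), where every SOD1 library was below every WT library at levels close to the bottom of the members. The CD3 chains of CD4 cells at d120 had log2 fold changes between -0.21 for Cd3d and 0.27 for Cd3e, Lck 0.24, Lat 0.00 and Zap70 -0.26. At d30, with 2 WT libraries, CD4 members lay between -0.82 for Cbl and 0.28 for Cd3g, all with an edgeR adjusted p of 1. The median over the members was -0.04 in Treg at d120 and -0.06 at d30, beside 0.02 and 0.00 for all genes, and 0.00 in CD4 cells at d120 and -0.04 at d30, beside -0.06 and 0.04 for all genes.

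In the cultures Malt1 came nearest at T0 with 65.3, 121 and 144 CPM in SOD1 and 60.5, 52.1 and 51.0 CPM in WT (1.04, SE 0.38, edgeR adjusted p = 0.817). Zap70 came nearest at T2 with 55.0, 103 and 65.2 CPM in SOD1 and 151.6, 120.04 and 116.9 CPM in WT (-0.76, SE 0.29, edgeR adjusted p = 0.457). In both cases the groups did not overlap. At T20 Nfatc2 with 0.61 (SE 0.36) came nearest (edgeR adjusted p = 1). The median over the members was 0.18 at T0, 0.23 at T2 and -0.04 at T20, beside 0.00, 0.05 and -0.03 for all genes; with total counts in place of TMM scaling the median of all genes at T0 was itself 0.28. In the test of the response at T20 relative to T0, Malt1 had the largest difference of the 38 between the genotypes, -1.62 in SOD1 minus WT (SE 0.55, unadjusted p = 0.00866, edgeR adjusted p = 1).

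The inguinal lymph nodes at d120 had B cell markers at between 1380 and 2536 CPM beside receptor constant and coreceptor genes at between 1185 and 1986 CPM. Per kilobase Cd3d with 186 ± 85.5 CPM and Ptpn6, which B cells also express, with 182 ± 53.5 CPM led there (SD, n = 6). Of the 38 members 36 could be tested, since Sla2 with 3 to 15 counts and Orai1 with 2 to 11 counts were too low. Cbl came nearest, with 164.5, 145 and 198 CPM in SOD1 and 179, 880.2 and 443 CPM in WT (-1.49, SE 0.50, edgeR adjusted p = 0.968). The second WT library was far above the rest and was the shallowest of the 6, with 63887 counts, 54 of them from Cbl. Lck had 230.0, 237 and 234 CPM in SOD1 and 343, 326 and 239 CPM in WT (-0.36, SE 0.30, edgeR adjusted p = 0.970), without overlap but with the third WT library close to the SOD1 values. Cd3d had -0.53 (SE 0.41), Cd3e -0.07 (SE 0.50), Cd3g -0.03 (SE 0.33), Cd247 -0.07 (SE 0.32), Lat -0.23 (SE 0.39) and Zap70 0.21 (SE 0.53). The median was 0.06 for the members and 0.01 for all genes. Depth limits what could be seen there, since 2 of the 6 libraries had under 300000 counts.

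Whole thymus at d120, deposited as TPM (transcript abundance scaled for length and library size), was compared within that table only. Cd3d had 455, 460.0 and 548 TPM in SOD1 and 428, 410 and 406 TPM in WT, so that the groups did not overlap, and a difference of 0.23 on the log2(TPM + 1) scale (SE 0.10, limma adjusted p = 0.999 after Benjamini-Hochberg adjustment). Lck had 1509, 1495 and 1373 TPM in SOD1 and 1498, 1364 and 1522 TPM in WT, which overlap fully, with a difference of 0.00 (SE 0.09). Themis, whose levels had separated the ages in Treg, had 211, 200.3 and 163 TPM in SOD1 and 199.5, 182 and 189 TPM in WT. Cd3g had 0.13 (SE 0.14), Cd3e -0.09 (SE 0.13), Cd247 -0.04 (SE 0.10), Lat 0.10 (SE 0.09) and Zap70 -0.02 (SE 0.10). All 38 members lay between -0.30 for Nfatc1 and 0.23 for Cd3d, with a median of -0.06, beside -0.03 for the 14437 genes tested. The third SOD1 library stood apart in several members. It lay below all others for Grap2 (115 TPM), Cbl (96.1 TPM) and Pag1 (32.0 TPM), and above all others for Cd3d. No member passed when it was left out. No gene of the other pathway lists passed between SOD1 and WT in any of the 9 comparisons.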

How the data were processed

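RNA was measured in bulk libraries, 76 in all, made with a SMART-Seq v4 low-input kit per the labels' protocols, from FACS-sorted thymic cells, cultures, inguinal lymph nodes and whole thymi. Read counts per gene were deposited by the authors for sorted cells, cultures and lymph nodes. Whole thymus values were deposited as TPM, which keep no depth. The submitters' processing notes name mm10 and DESeq2 without a role; the aligner, the counter and any strand setting were not given in the sources used here.

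Counts were scaled with TMM factors, filtered by group (filterByExpr) and tested with edgeR 4.0.16 (quasi-likelihood, Benjamini-Hochberg adjustment over all genes tested, threshold 0.05). Sorted Treg, sorted CD4 cells, both together, cultures and lymph nodes each had a fit over all their groups, with genotypes averaged for age, activation and cell type. The design written at the outset called for a negative binomial dispersion per gene. The values reported use a trended dispersion with a quasi-likelihood dispersion per gene, which gave fewer false calls on simulated counts. The simulations covered comparisons of SOD1 with WT only, not those of age, activation or cell type. The change to the trended dispersion was made after results of both had been seen. It calls fewer members in most comparisons, and the counts under the first design are given with the alternatives. TPM were tested with limma 3.58.1 after log2(TPM + 1), keeping genes whose mean reached 1 TPM. DESeq2 1.42.0, limma on voom weights, other scalings, filters, fits and left-out libraries were alternatives. Total counts without TMM factors and the test of the age change between cell types were added after the data had been seen.

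Levels per kilobase use GENCODE vM21 exon lengths, and 55094 of 55487 gene IDs matched it. Promoter windows are from RefSeq. All 38 members are accounted for; up to 6 called per direction with the smallest adjusted p, the CD3 chains, Lck, Zap70 and Lat, and up to 4 genes per pathway list are given in most detail. Members and lists were chosen with earlier results of these data known. Libraries of a group differed by more than sampling noise (lowest chi-square per gene 3.00). Depth limits low genes in the shallow culture and lymph node libraries and in the CD4 libraries at d120. The values of 1 gene of the pathway lists are not reported here.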

Additional observations from a re-analysis of the deposited data

Results flagged for a closer look

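Ptpn6 and Sla stood out because their change with age differed between the sorted populations in a test of the difference itself. The log2 change at d120 relative to d30 was 1.35 higher in Treg than in CD4 cells for Ptpn6 (edgeR adjusted p = 0.0454), with -0.92 in Treg and -2.24 in CD4 cells, and 1.15 higher for Sla (edgeR adjusted p = 0.0420), with -0.02 in Treg and -1.15 in CD4 cells. Ptpn6 shares 6.96% of its exon bases with Gm20531 on the other strand. Over the 30 alternatives run the differences kept their sign, and Ptpn6 no longer passed in 22 of them and Sla in 17. Neither passed with a block by replicate number. The B cell markers had a median difference of 2.13 in the same test, with 5 of 9 at an unadjusted p under 0.05 and 1 passing, and 1 of 11 myeloid and dendritic cell markers passed; their part in the Ptpn6 and Sla values was not tested.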

How the results depend on the processing

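Of 2544 values of 101 results on single members under the alternatives, 2249 kept their direction and their side of the threshold, 295 kept their direction and no longer passed, and 0 changed direction; of 99 calls in 6 comparisons 54 held throughout. Where the counts of members called moved by over 1.5 times, the cause was not tested. With no filter on low counts 1 rose and 7 fell with age in CD4 cells (3 and 4 as reported), 3 were higher and 7 lower in Treg than in CD4 cells at d30 (5 and 4), and 14 fell at T2 and 13 at T20 (22 and 23). DESeq2 gave 5 higher and 9 lower with age in CD4 cells, 7 lower in Treg at d30, and 1 lower for the age change (0 as reported). Limma on voom weights gave 6 higher and 9 lower with age in CD4 cells, 8 higher and 14 lower in Treg at d30, and 1 lower for the age change. With tagwise dispersion, the design first written, 8 rose and 15 fell with age in Treg (6 and 12), 4 rose and 7 fell in CD4 cells, 6 were higher and 6 lower in Treg than in CD4 cells at d30, 9 and 5 at d120, 3 rose and 23 fell at T2, 3 rose and 24 fell at T20, and 2 were higher and 1 lower for the age change. Size factors of DESeq2 took the higher calls of the age change to 0 (2 as reported), total counts to 1, and total counts left 3 lower in Treg at d120 (5). Without libraries under 300000 counts 15 fell at T20.

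Leaving out 1 library gave 0 to 3 higher and 1 to 5 lower with age in CD4 cells, 0 to 6 higher and 2 to 6 lower in Treg at d30, 3 to 6 lower in Treg at d120, and 0 to 2 higher and 0 to 1 lower for the age change. No label ties libraries of the same replicate number to 1 animal, and not every such pair correlated over 0.1, so the fits reported have no pairing: 3 of 26 SOD1 and WT pairs did, 9 of 11 Treg and CD4 pairs and 5 of 18 culture pairs. As a hint from the data of a shared source, 22 of 22 Treg and CD4 libraries and 32 of 36 in culture correlated best with their own number, beside 19 of 52 for SOD1 and WT. With the number as a block 3 were higher in Treg at d30, 3 lower at d120, and 0 higher for the age change, so that neither Ptpn6 nor Sla passed.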

Other observations

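The members were also read in sorted thymic epithelial cells, where some members that many cell types express were high: Bcl10 averaged 61.1 CPM per kb in medullary epithelial libraries at d120 and 38.9 at d30. Lck lay between 1.3 and 29.0 CPM per kb in cortical epithelial libraries at d120, against 89.3 and 157 at d30, and Cd3g between 2.5 and 20.2 at d120, against 62.1 and 95.2 at d30 (6 libraries at d120 and 5 at d30, where WT had 2). In medullary epithelial libraries Lck lay between 0.78 and 12.5 CPM per kb at d120, against 13.1 and 56.2 at d30, and Cd3g between 0 and 7.2 at d120, against 0 and 10.1 at d30. The highest Lck and lowest Cd3g values at d30 there came from SOD1 replicate 1, with 15135 counts in all. The same library had 32.9 CPM of Sod1, the lowest of the SOD1 libraries, below the highest WT library with 34.2 CPM. The double-positive thymocyte markers of the cortical libraries summed to between 19.6 and 300.5 CPM at d120, against 592 to 1102 CPM at d30.

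In sorted CD4 cells Cd8a had a higher median than Cd4 at both ages. The medians were 233 CPM of Cd8a and 99.9 CPM of Cd4 at d120, and 304 CPM of Cd8a and 173 CPM of Cd4 at d30. Treg at d120 likewise had 153 CPM of Cd8a and 119 CPM of Cd4. At d30 Treg had 157 CPM of Cd8a and 193 CPM of Cd4. Cd8b1 had medians of 204 CPM at d120 and 293 CPM at d30 in CD4 cells, above Cd4. In Treg its medians were 111 CPM at d120 and 146 CPM at d30, below Cd4. CPM is not scaled for gene length, which limits a comparison between the genes.

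The T0 cultures differed among themselves in thymocyte genes, with Rag1 between 6.7 and 462 CPM.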
